A study of Mus musculus with 24 samples.

Results

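The genes described here are 8 genes that mark GABA neurons or help to form them: Dlx1, Dlx2, Dlx5, Dlx6, Gad1, Gad2, Slc32a1 and Sst. Each was taken by name, as the probe set annotated to exactly 1 gene symbol, and where a gene had several such probe sets the one used was chosen by its mean signal over all 24 arrays. Each of the 8 genes had 1, so the mean decided nothing. They are 8 of the 11871 genes tested, and all 8 had a mean signal over all arrays above the filter of 5.86 log2 units. The genes were proposed with earlier results of these arrays in view, so the tests below describe them and are no independent evidence that genes of this kind differ between the conditions.

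The tissue was the mediobasal hypothalamus of mice, the base of the hypothalamus around the third ventricle, with the background strain spelled C57BL76J in the labels. Timed sleep restriction (TSR) kept mice awake by gentle handling between zeitgeber time (ZT, counted in hours from lights on) 0 and 6 for 5 days, followed by 2 days of free sleep and another 5 days of restriction, and control mice (CON) were left undisturbed over the same period. Arrays came from TSR and CON mice at ZT1, ZT7, ZT13 and ZT19, 3 for each condition and time and 24 in all, which matches the 3 mice per group that the design text states. The sources used here give neither the age of the mice nor the day of tissue collection. The comparisons address how restricting sleep in the usual rest phase affected transcript levels and their course over the day. The number of arrays limits the precision, and the p-values rest on the spread among these arrays, some of which may be technical.

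GABA is the main inhibitory transmitter of the hypothalamus. Glutamate decarboxylase makes it from glutamate, and a vesicular transporter loads it into synaptic vesicles. Dlx proteins are homeodomain transcription factors that direct the formation of GABA neurons in the embryonic forebrain, and some hypothalamic and forebrain GABA neurons keep making them in the adult. Somatostatin is a peptide of many GABA neurons, and hypothalamic somatostatin neurons also inhibit the release of growth hormone from the pituitary.

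The arrays were not alike. In 4 arrays the signals were spread over a narrow range, with an interquartile range of 2.12 to 2.25 log2 units, against 2.96 to 3.29 in the other 20. The narrow arrays were TSR at ZT1 replicate 3, TSR at ZT13 replicate 2, and CON at ZT19 replicates 2 and 3. Results are given for all 24 arrays and for the 20 arrays without these, where CON at ZT19 rests on 1 array whose spread is assumed to be that of the other groups. Across all 24 arrays the median difference of all genes at ZT19 was 0.60 log2 units, against 0.08 in the 20 arrays. The residual standard deviation had a median over genes of 0.36 in the 24 arrays and of 0.11 in the 20, in log2 units. Of 12 listed markers of the arcuate and ventromedial nuclei, 8 were above the filter, among them Npy at 6.98 and Tac2 at 8.30 log2 units, while Pomc at 5.75 and Nr5a1 at 5.73 fell below it. In bulk tissue, fewer cells of a type and less RNA per cell cannot be told apart.

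Dlx1 and Dlx2 encode homeodomain factors that act early in GABA neuron formation, and the 2 genes are neighbours on mouse chromosome 2. Dlx2 was lower in TSR mice in both sets of arrays, and Dlx1 was lower in the 20 arrays. The windows of 250 bases before the RefSeq transcript start of each gene (assembly GRCm38.p6) are shown because these neighbours gave the most similar patterns over arrays of any 2 of the 8 genes. The Dlx1 window lies at chr2:71529195-71529444 on the plus strand and the Dlx2 window at chr2:71546755-71547004 on the minus strand, and capitals mark the E-box CACGTG, the sequence that clock activators and other bHLH factors are known to bind.
Dlx1: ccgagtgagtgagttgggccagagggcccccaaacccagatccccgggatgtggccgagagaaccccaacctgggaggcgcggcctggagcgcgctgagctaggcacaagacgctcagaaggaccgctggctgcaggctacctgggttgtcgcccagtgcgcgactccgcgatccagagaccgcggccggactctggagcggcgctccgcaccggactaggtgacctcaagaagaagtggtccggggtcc
Dlx2: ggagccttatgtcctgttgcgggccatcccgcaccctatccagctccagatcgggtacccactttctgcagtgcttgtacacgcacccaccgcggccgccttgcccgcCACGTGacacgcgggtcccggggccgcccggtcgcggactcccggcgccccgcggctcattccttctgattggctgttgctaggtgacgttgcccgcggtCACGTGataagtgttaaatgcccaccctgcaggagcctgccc
The Dlx2 window held CACGTG at 142 and at 42 bases before the start, counted to the first base of the motif, and the Dlx1 window held none. Both strands were searched, which for this palindrome is 1 search. Of 32851 windows of the same length before RefSeq starts, 6.02% held it. Among the 6 of the 8 genes found in the promoter table (Dlx1, Dlx2, Gad1, Gad2, Slc32a1 and Sst), Dlx2 was the only one with it. The sequence TAATTA, a core that Dlx homeodomains recognise, was in 0 of these 6 windows and in 4.84% of all windows. These matches describe letters in the windows and show no binding.

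Dlx2 had log2 signals of 6.72, 7.06 and, in the narrow array, 6.03 in TSR mice at ZT1, against 6.94, 6.93 and 7.15 in CON mice. Its ZT7 signals were 6.81, 6.77 and 6.63 in TSR mice, against 7.53, 7.39 and 7.47 in CON mice. The groups overlapped at ZT1 and lay apart at ZT7, with all TSR arrays lower. At ZT13 it had 6.63, 6.62 and, in the narrow array, 5.96 in TSR mice, against 7.33, 7.42 and 7.17 in CON mice. At ZT19 it had 6.76, 6.74 and 6.72 in TSR mice, against 7.29 and, in the narrow arrays, 6.41 and 6.69 in CON mice. All TSR arrays were lower at ZT13, and at ZT19 the TSR arrays lay below the wide CON array and above both narrow ones.

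Averaged over the 4 times, Dlx2 differed by -0.52 ± 0.11 log2 units in the 24 arrays (limma, moderated standard error, adjusted p = 0.0177). It was 1 of 8 genes past the threshold there, an adjusted p under 0.05 over all genes, against a background of 2.41% of all genes tested and 1.68% lower in TSR. Dlx2 passed in each of the 24 fits that left out 1 array, with differences of -0.58 to -0.45. The average difference in the 20 arrays was -0.52 ± 0.05 (adjusted p = 2.39e-07), a level 1.43 times higher in CON mice. In those arrays 5 of the 8 genes passed for the average effect, 4 lower and 1 higher, against a background of 56.5% of all genes, 22.9% lower and 33.6% higher. The share of the 8 genes past the threshold was thus close to that of all genes. Only 0.6% of all genes had a lower average difference than Dlx2 in the 20 arrays.

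By time, Dlx2 differed in the 20 arrays by -0.12 ± 0.10 at ZT1 (adjusted p = 0.474), by -0.73 ± 0.09 at ZT7 (adjusted p = 7.96e-06), by -0.68 ± 0.10 at ZT13 (adjusted p = 3.24e-05) and by -0.54 ± 0.13 at ZT19 (adjusted p = 0.00628). In the 24 arrays the difference at ZT13 was -0.90 ± 0.23 (adjusted p = 0.0778) and that at ZT7 was -0.73 ± 0.23 (adjusted p = 0.313), and neither passed. Ordered by their means in the 20 arrays, the 4 TSR groups were the lowest, at 6.63 (ZT13), 6.73 (ZT7), 6.74 (ZT19) and 6.89 (ZT1), followed by CON at 7.01 (ZT1), 7.29 (ZT19), 7.31 (ZT13) and 7.46 (ZT7). Among neighbours in that order, only CON at ZT1 and CON at ZT19 had ranges that did not overlap.

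**Figure D1:**
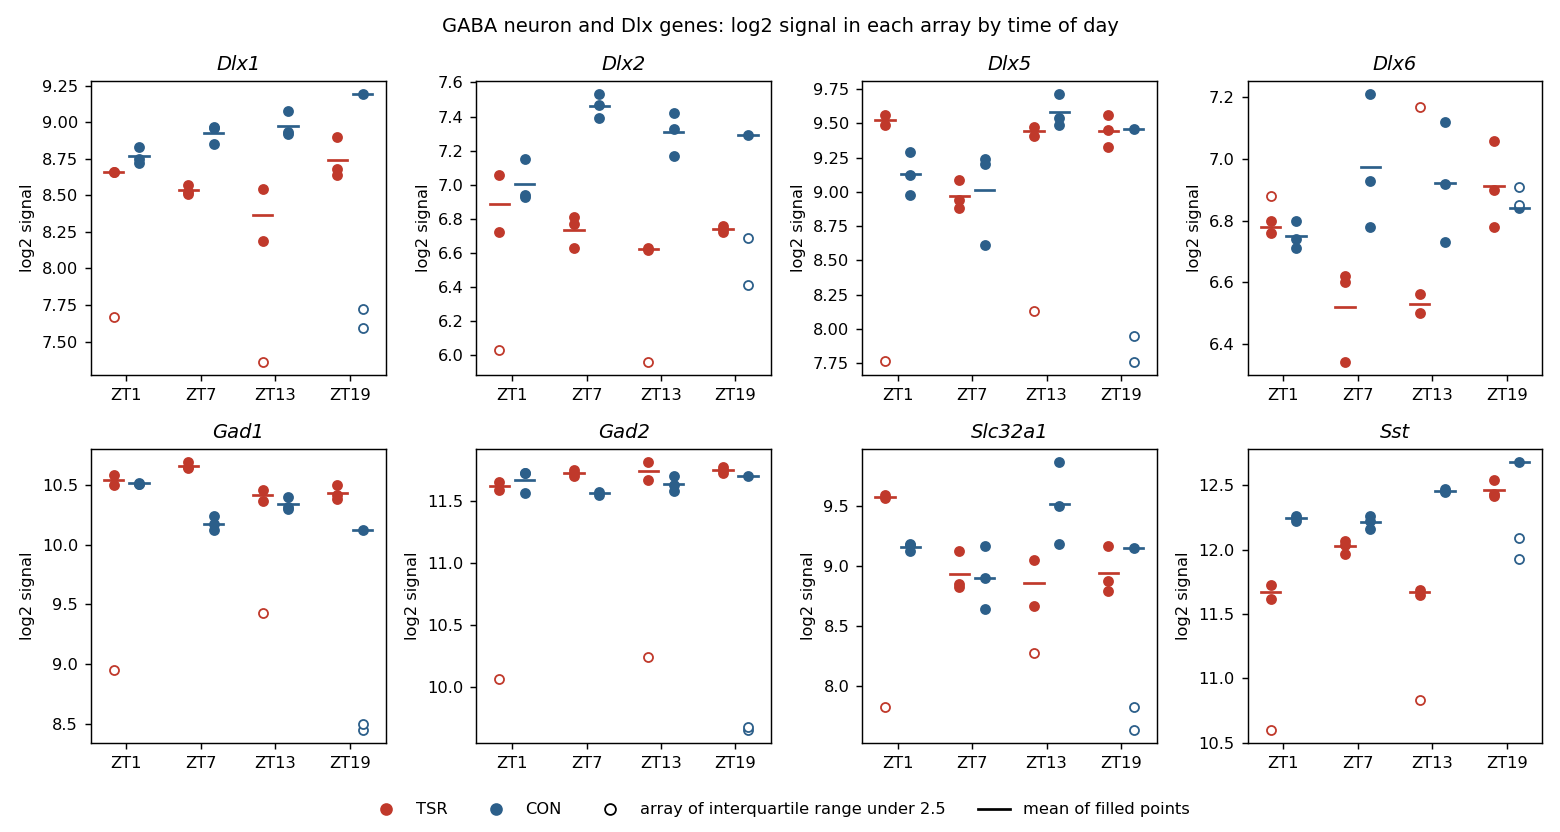
Log2 signal of the 8 genes (panels) in each array by time of day, TSR in red to the left of CON in blue at each time; open points are the 4 arrays of interquartile range under 2.5 and bars are means of the filled points. The open points lie below the filled ones of their own group for every gene but Dlx6. The filled TSR points of Dlx1 and Sst lie below the filled CON points at ZT1, ZT7, ZT13 and ZT19. Those of Dlx2 do so at ZT7, ZT13 and ZT19, and CON at ZT19 has 1 filled point.

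Dlx1 had log2 signals of 8.66, 8.66 and, in the narrow array, 7.67 in TSR mice at ZT1, against 8.83, 8.75 and 8.72 in CON mice. Its ZT7 signals were 8.51, 8.57 and 8.52 in TSR mice, against 8.96, 8.97 and 8.85 in CON mice. All TSR arrays were below all CON arrays at both times. At ZT13 it had 8.19, 8.54 and, in the narrow array, 7.36 in TSR mice, against 9.08, 8.93 and 8.92 in CON mice. At ZT19 it had 8.68, 8.64 and 8.90 in TSR mice, against 9.19 and, in the narrow arrays, 7.59 and 7.72 in CON mice. The groups lay apart at ZT13, and at ZT19 the direction turned on whether the narrow arrays were kept.

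The average difference of Dlx1 was -0.30 ± 0.17 in the 24 arrays (adjusted p = 0.414) and -0.39 ± 0.05 in the 20 arrays (adjusted p = 2.20e-06). In the 20 arrays the difference at ZT13 was -0.61 ± 0.09 (adjusted p = 3.71e-05), a level 1.53 times higher in CON mice, and that at ZT7 was -0.39 ± 0.08 (adjusted p = 0.0017). At ZT19 it was 0.57 ± 0.35 in the 24 arrays (adjusted p = 0.153) and -0.46 ± 0.12 in the 20 arrays (adjusted p = 0.0102), so the direction reversed. As with Dlx2, the mean of each TSR group in the 20 arrays lay below the mean of each CON group, with TSR between 8.36 (ZT13) and 8.74 (ZT19) and CON between 8.77 (ZT1) and 9.19 (ZT19). RefSeq places the antisense gene Dlx1as over Dlx1, and whether the probe set tells the strands apart was not tested.

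Dlx5 and Dlx6 act later in GABA neuron maturation than Dlx1 and Dlx2, and are neighbours on mouse chromosome 6. Dlx6 had 6.62, 6.34 and 6.60 in TSR mice at ZT7, against 7.21, 6.93 and 6.78 in CON mice, so that all TSR arrays were lower. At ZT13 Dlx6 had 6.50, 6.56 and, in the narrow array, 7.17 in TSR mice, against 6.92, 7.12 and 6.73 in CON mice, and the groups lay apart only without the narrow array. Over ZT1 and ZT19 it ranged from 6.76 to 7.06 in TSR mice and from 6.71 to 6.91 in CON mice, narrow arrays included, with overlap at both times. Without the narrow arrays Dlx6 fell by 0.45 ± 0.11 at ZT7 (adjusted p = 0.00501) and by 0.39 ± 0.13 at ZT13 (adjusted p = 0.016), and it differed by 0.03 ± 0.13 at ZT1 (adjusted p = 0.912) and 0.08 ± 0.16 at ZT19 (adjusted p = 0.746). Its average difference was -0.18 ± 0.07 there (adjusted p = 0.0228), against -0.13 ± 0.08 in the 24 arrays (adjusted p = 0.445). The antisense gene Dlx6os1 overlaps Dlx6 in RefSeq, and the strands were again not tested apart.

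Dlx5 had 9.56, 9.49 and, in the narrow array, 7.77 in TSR mice at ZT1, against 9.29, 9.12 and 8.98 in CON mice. At ZT7 it had 8.94, 9.09 and 8.88 in TSR mice, against 9.24, 9.20 and 8.61 in CON mice. The TSR arrays were the higher ones at ZT1 once the narrow array was left out, and the groups overlapped at ZT7. For ZT13 the signals were 9.41, 9.47 and, in the narrow array, 8.13 in TSR mice, against 9.54, 9.71 and 9.49 in CON mice. For ZT19 they were 9.45, 9.56 and 9.33 in TSR mice, against 9.46 and, in the narrow arrays, 7.76 and 7.95 in CON mice. All TSR arrays were lower at ZT13, by little for the wide ones, and at ZT19 the wide CON array lay among the TSR arrays. In the 20 arrays the difference at ZT1 was 0.40 ± 0.14 (adjusted p = 0.0682), and at the other times it ranged from -0.14 ± 0.14 at ZT13 to -0.01 ± 0.17 at ZT19. None of the Dlx5 differences between the conditions passed the threshold in either set of arrays. Its average difference was 0.06 ± 0.22 in the 24 arrays and 0.05 ± 0.07 in the 20. Its group means in the 20 arrays were lowest at ZT7 in both conditions and spanned 0.55 log2 units in TSR mice and 0.57 in CON mice.

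Gad1 and Gad2 encode the decarboxylases GAD67 and GAD65, of which GAD67 makes most of the GABA of the cell and GAD65 serves the nerve terminals. Gad1 was the 1 gene of the 8 that passed as higher on average in TSR mice in the 20 arrays. At ZT7 it had 10.65, 10.69 and 10.64 in TSR mice, against 10.24, 10.12 and 10.17 in CON mice. At ZT19 it had 10.42, 10.50 and 10.38 in TSR mice, against 10.12 and, in the narrow arrays, 8.45 and 8.50 in CON mice. All TSR arrays were above all CON arrays at these 2 times. At ZT1 Gad1 had 10.50, 10.58 and, in the narrow array, 8.95 in TSR mice, against 10.51, 10.51 and 10.52 in CON mice. At ZT13 it had 10.37, 10.46 and, in the narrow array, 9.43 in TSR mice, against 10.30, 10.40 and 10.32 in CON mice. The groups overlapped at ZT1 and ZT13. One of the 3 TSR values at ZT7 had lost the place of its decimal point in the deposited table and was restored.

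Gad1 rose in the 20 arrays by 0.49 ± 0.05 at ZT7 (adjusted p = 8.25e-07), a 1.40-fold difference, and by 0.32 ± 0.07 at ZT19 (adjusted p = 0.00448). It differed by 0.02 ± 0.06 at ZT1 (adjusted p = 0.819) and 0.07 ± 0.06 at ZT13 (adjusted p = 0.312). The average difference was 0.22 ± 0.03 in the 20 arrays (adjusted p = 4.14e-06) and 0.28 ± 0.20 in the 24 arrays (adjusted p = 0.521). At ZT7, where no array was narrow, the 24-array fit gave the same difference with a standard error of 0.41 (adjusted p = 1), since the spread was estimated over all groups. In the order of group means in the 20 arrays, CON at ZT19 was the lowest at 10.12 and TSR at ZT7 the highest at 10.66, and TSR at ZT7 lay above the range of its nearest neighbour, TSR at ZT1.

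Gad2 showed smaller differences. Its value in CON replicate 2 at ZT7 had become a date in the deposited table and was left out of the fits described here. Read back from the date it was 11.67, above the other CON values and below the TSR values. The remaining ZT7 signals were 11.75, 11.70 and 11.72 in TSR mice, against 11.57 and 11.55 in CON mice. The difference was 0.16 ± 0.06 in the 20 arrays (adjusted p = 0.0357). For ZT1 the signals were 11.65, 11.59 and, in the narrow array, 10.06 in TSR mice, against 11.72, 11.72 and 11.56 in CON mice. For ZT13 they were 11.67, 11.81 and, in the narrow array, 10.24 in TSR mice, against 11.70, 11.63 and 11.58 in CON mice. The wide arrays overlapped at both times. At the other times the 20-array difference lay between -0.04 ± 0.06 at ZT1 and 0.10 ± 0.06 at ZT13, and none passed. The average difference was 0.07 ± 0.03 in the 20 arrays (adjusted p = 0.0669) and 0.15 ± 0.25 in the 24 (adjusted p = 0.797). With quantile normalization of the 20 arrays Gad2 passed for the average effect, at 0.14 ± 0.03 (adjusted p = 0.000312), and at every time, from -0.19 ± 0.05 at ZT1 (adjusted p = 0.0181) to 0.32 ± 0.05 at ZT13 (adjusted p = 3.83e-05).

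At ZT19 in the 24 arrays, Gad1 and Gad2 were the 2 of 8 genes past the threshold, each with a difference of 1.41 (adjusted p = 0.0204 and 0.027), against a background of 55.4% of all genes in either direction and 44.4% higher. Gad2 had 11.72, 11.77 and 11.75 in TSR mice there, against 11.70 and, in the narrow arrays, 9.65 and 9.67 in CON mice. Only the narrow CON arrays stood far below the TSR arrays. Leaving out CON replicate 2 or 3 or TSR replicate 1 or 2 at ZT19 took the count to 0. In each of these fits 0.00842% of all genes passed at ZT19. Leaving out TSR replicate 3 took the count to 1, where 27.6% of all genes passed. Without both narrow arrays the Gad2 difference was 0.05 ± 0.07.

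Slc32a1 encodes the transporter that loads GABA and glycine into synaptic vesicles. At ZT13 it had 8.66, 9.05 and, in the narrow array, 8.27 in TSR mice, against 9.50, 9.86 and 9.18 in CON mice, with all TSR arrays lower. At ZT1 it had 9.56, 9.59 and, in the narrow array, 7.82 in TSR mice, against 9.17, 9.12 and 9.18 in CON mice, so the wide TSR arrays were the higher ones. At ZT7 it had 8.82, 8.85 and 9.12 in TSR mice, against 8.90, 9.16 and 8.64 in CON mice, with overlap. For ZT19 it had 8.87, 8.79 and 9.16 in TSR mice, against 9.15 and, in the narrow arrays, 7.82 and 7.63 in CON mice, and the wide CON array lay within the TSR range. In the 20 arrays the difference was -0.65 ± 0.16 at ZT13 (adjusted p = 0.00301), while 0.42 ± 0.16 at ZT1 (adjusted p = 0.107) and -0.21 ± 0.21 at ZT19 (adjusted p = 0.463) did not pass. Its average difference, -0.06 ± 0.20 in the 24 arrays and -0.10 ± 0.09 in the 20, did not pass in either set. Gad1, Gad2 and Slc32a1 thus had 20-array differences of 0.07, 0.10 and -0.65 at the same time, ZT13.

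**Figure D2:**
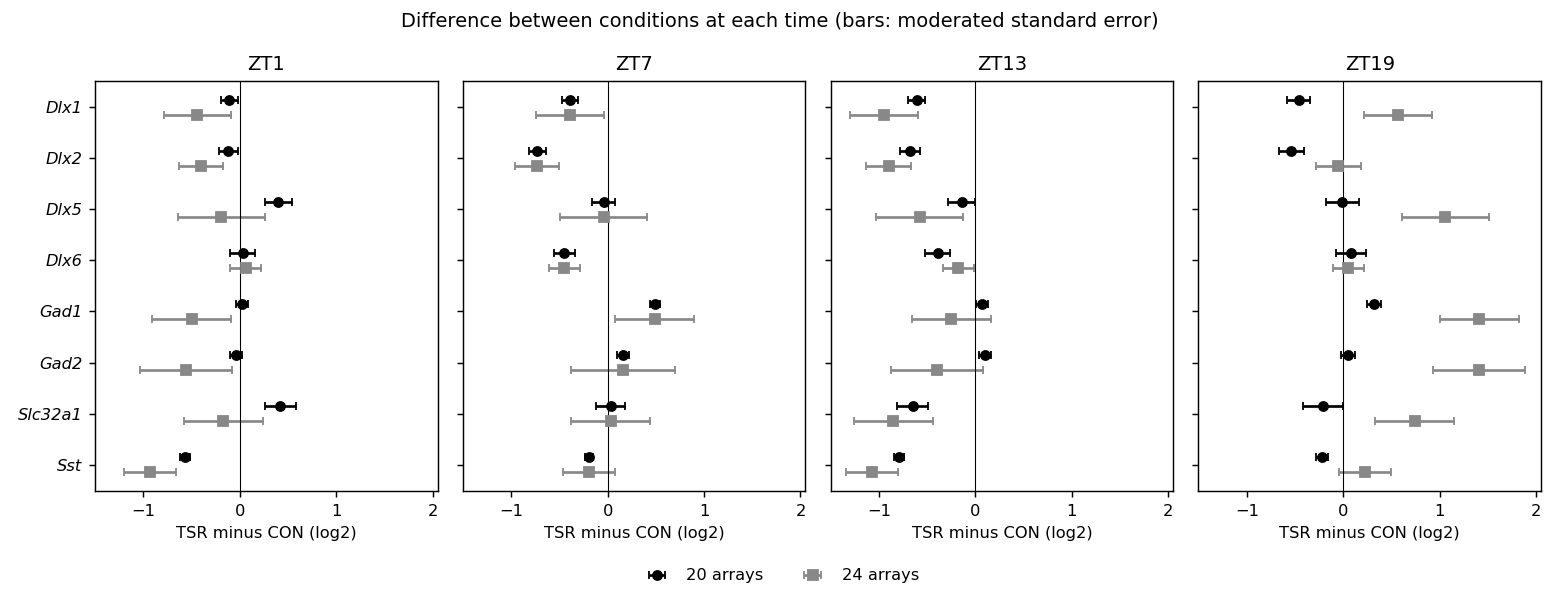
TSR minus CON in log2 units for the 8 genes at each time, from the fit to 20 arrays (circles) and to 24 arrays (grey squares), with bars of 1 moderated standard error. The bars of the 24-array fit are longer at every time for the 7 genes other than Dlx6, and at ZT19 the 24-array points of Dlx1, Dlx2, Dlx5, Gad1, Gad2, Slc32a1 and Sst lie to the right of the 20-array points.

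Sst encodes the precursor of somatostatin. It had the smallest p of the 8 genes for the average effect in the 20 arrays, though with quantile normalization of these arrays Dlx1 did. The 250 bases before its RefSeq start are shown because this short promoter is the textbook site of the cAMP response element, and lie at chr16:23890845-23891094 on the minus strand of GRCm38.p6, with the element TGACGTCA in capitals.
Sst: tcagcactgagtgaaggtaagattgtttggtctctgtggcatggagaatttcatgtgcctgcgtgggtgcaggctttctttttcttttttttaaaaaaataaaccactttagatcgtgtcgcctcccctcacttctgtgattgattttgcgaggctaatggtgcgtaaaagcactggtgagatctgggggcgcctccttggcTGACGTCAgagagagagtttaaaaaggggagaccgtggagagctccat
The element began 48 bases before the start, and both strands were searched, which for this palindrome is 1 search. It was in 1.55% of the 32851 windows and in none of the other 5 windows of the 8 genes.

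Sst had log2 signals of 11.73, 11.62 and, in the narrow array, 10.60 in TSR mice at ZT1, against 12.25, 12.26 and 12.22 in CON mice. Its ZT7 signals were 12.07, 12.04 and 11.97 in TSR mice, against 12.22, 12.16 and 12.26 in CON mice. All TSR arrays were below all CON arrays at both times. At ZT13 it had 11.65, 11.69 and, in the narrow array, 10.83 in TSR mice, against 12.46, 12.47 and 12.45 in CON mice. At ZT19 it had 12.42, 12.43 and 12.54 in TSR mice, against 12.68 and, in the narrow arrays, 12.09 and 11.93 in CON mice. The groups lay far apart at ZT13, and at ZT19 the TSR arrays fell between the wide and the narrow CON arrays.

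Sst fell at each time in the 20 arrays, by 0.57 ± 0.05 at ZT1 (adjusted p = 4.41e-07), by 0.19 ± 0.04 at ZT7 (adjusted p = 0.00288), by 0.79 ± 0.05 at ZT13 (adjusted p = 9.82e-10) and by 0.22 ± 0.06 at ZT19 (adjusted p = 0.0155). The calls at ZT7 and ZT19 ended with quantile normalization of the same arrays, at -0.07 ± 0.06 (adjusted p = 0.397) and -0.15 ± 0.09 (adjusted p = 0.197), while those at ZT1 and ZT13 remained, at -0.67 ± 0.07 (adjusted p = 2.29e-06) and -0.64 ± 0.07 (adjusted p = 2.6e-07). The difference at ZT13 corresponds to a level 1.73 times higher in CON mice, and it had the 6th smallest p of all genes at that time. With quantile normalization of the 20 arrays it had only the 335th smallest. The average difference was -0.44 ± 0.03 (adjusted p = 1.44e-10), 13th by p among the 11871 genes. In the 24 arrays it was -0.49 ± 0.13 and did not pass (adjusted p = 0.0592), though it passed when TSR at ZT1 replicate 2 or 3, TSR at ZT13 replicate 2, or CON at ZT19 replicate 1 or 3 was left out, and with quantile normalization of the 24 arrays (-0.44 ± 0.08, adjusted p = 0.00207). At ZT13 the 24-array difference was -1.07 ± 0.27 (adjusted p = 0.0778). Quantile normalization of the 20 arrays gave an average difference of -0.38 ± 0.04, which was 366th by p rather than 13th.

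Sst also had a course over the day that differed between the conditions. In TSR mice its means in the 20 arrays were 11.68 at ZT1, 12.03 at ZT7, 11.67 at ZT13 and 12.46 at ZT19, a span of 0.79 log2 units. In CON mice they were 12.24, 12.21, 12.46 and 12.68, a span of 0.47, and the ZT19 value was that of 1 array. With the narrow arrays kept, the CON mean at ZT19 was 12.23. The effect of time in TSR mice had an adjusted p of 2.45e-09 in the 20 arrays, the smallest p of any gene, and that in CON mice an adjusted p of 2.21e-05. The interaction of condition and time passed as well (adjusted p = 6.37e-06). In the 24 arrays none of these passed, with adjusted p = 0.251, 0.799 and 0.119 for TSR, CON and the interaction. With quantile normalization of the 20 arrays the effect of time in TSR mice was 28th by p among all genes rather than first. In the order of means, TSR at ZT13 and ZT1 were lowest and overlapped, TSR at ZT7 lay apart from both, and TSR at ZT19 overlapped with CON at ZT13.

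Over the 8 genes, the effect of time passed for 6 in TSR mice in the 20 arrays, against a background of 24.4% of all genes, and for 6 in CON mice, against 29.9%. The interaction passed for 6 as well, against 29.9%, and the 2 that missed were Dlx5 (adjusted p = 0.121) and Gad2 (adjusted p = 0.185). With quantile normalization of the same arrays Gad2 passed (adjusted p = 0.00011) and Dlx6 did not (adjusted p = 0.0548). Gad1 had an interaction adjusted p of 0.000504, Dlx2 of 0.01 and Slc32a1 of 0.0104. In the 24 arrays 0 of 8 passed any of the 3 limma tests, where the backgrounds were 0.118%, 0.286% and 0.261% of all genes in the same order. There 1, 4 and 4 of the 8 genes had an unadjusted p under 0.05, against 2.94%, 46.6% and 41.6% of all genes, so the counts for CON mice and for the interaction were close to the share of all genes.

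The count of genes past the threshold at single times depended on the arrays used. With 24 arrays, limma called 0 of 8 at ZT1, ZT7 and ZT13, against backgrounds of 0.0505%, 0.43% and 0.413%, and 1, 2 and 4 of the 8 genes had an unadjusted p under 0.05, against 4.1%, 5.47% and 13.7% of all genes. With 20 arrays it called 1 of 8 at ZT1 (Sst, lower), against 10.1% of all genes in either direction and 3.12% lower. At ZT7 it called 6, with Dlx1, Dlx2, Dlx6 and Sst lower and Gad1 and Gad2 higher, against 26.9% of all genes, 13.9% lower and 13% higher. At ZT13 it called 5, all lower (Dlx1, Dlx2, Dlx6, Slc32a1 and Sst), against 46.2% in either direction and 22% lower. At ZT19 it called 4, with Dlx1, Dlx2 and Sst lower and Gad1 higher, against 24.9% of all genes, 7.13% lower and 17.8% higher. At ZT7, where all 6 arrays were wide, TSR and CON did not overlap for 6 of the 8 genes, against 36.2% of all genes. Over all 24 arrays they did not overlap for 2 of 8 at ZT1, against 15.1% of all genes, for 5 of 8 at ZT13, against 27.4%, and for 2 of 8 at ZT19, against 56.7%. At ZT13 all TSR arrays were lower for these 5, against 24.6% of all genes. Without the narrow arrays the groups lay apart for 4 of 8 at ZT1, against 52.4%, and for 5 of 8 at ZT19, against 79.6%. The shares of the 8 genes were thus near or below those of all genes at ZT1 and ZT19. At ZT13 the groups lay apart for 6 of 8, against 62.6% of all genes in either direction. All wide TSR arrays were lower for these 6, against 30.5% of all genes. The median difference of the 8 genes in the 20 arrays was -0.14 on average and -0.50 at ZT13, against 0.03 and 0 for all genes.

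**Figure D3:**
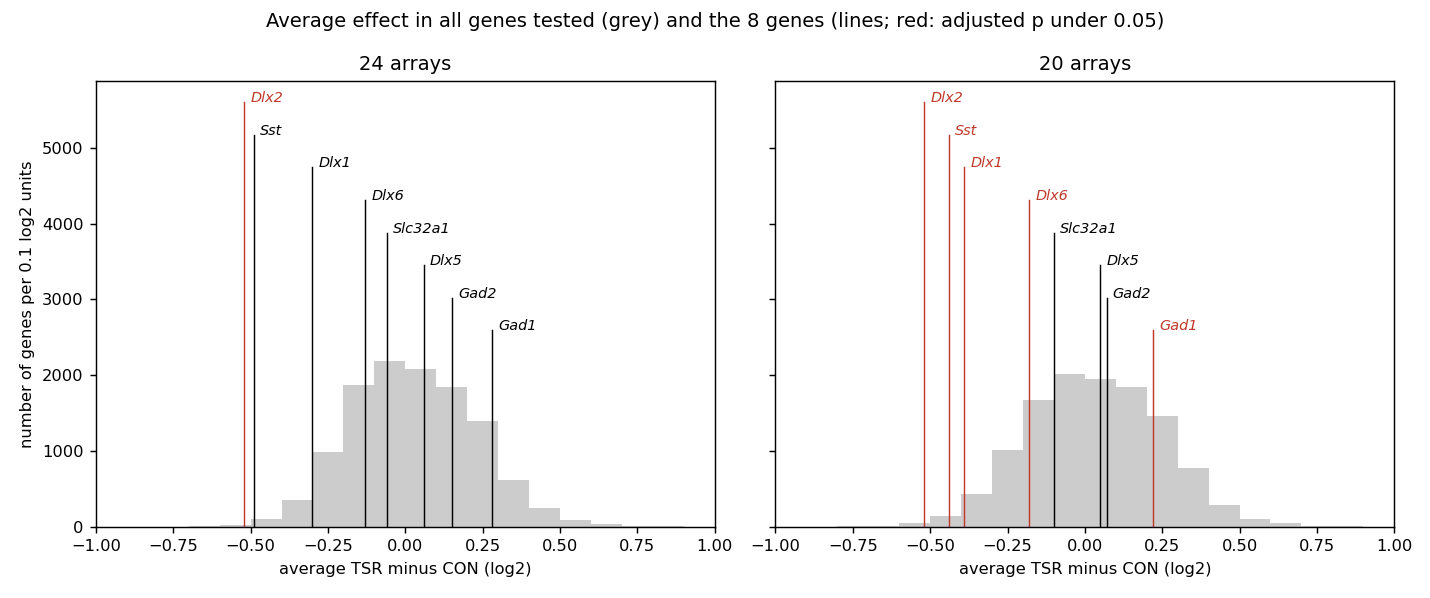
Histograms of the average TSR minus CON difference in log2 units over all genes tested (grey, number of genes per 0.1 units) for 24 arrays (left) and 20 arrays (right), with the 8 genes as lines, red where the adjusted p was under 0.05. Dlx2, Sst and Dlx1 lie in the lower tail in both panels, and only Dlx2 is red on the left.

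Described over the 20 arrays, which share the 8 groups and so their differences, Dlx1 correlated with Dlx2 (r = 0.76), with Sst (r = 0.74) and with Dlx6 (r = 0.69). Gad1 ran against Dlx2 (r = -0.68) and Dlx1 (r = -0.65), and Gad2 against Dlx2 (r = -0.69, 19 arrays). Dlx5 correlated best with Slc32a1 (r = 0.54) and hardly with Dlx2 (r = -0.06). The 5 genes most like the mean of the 4 Dlx genes were Plxna1 (r = 0.959), Cdk9 (0.939), Rapgefl1 (0.936), Zdhhc1 (0.933) and Iqce (0.93), all over 20 arrays. Those most like the mean of Gad1, Gad2 and Slc32a1 over 19 arrays were Gramd1b (r = 0.918), Got2 (0.899), Sparcl1 (0.898), Tango2 (0.884) and Dnajc27 (0.875). The averaged genes varied little together, with r = 0.35 for Gad1 and Gad2, 0.04 for Gad1 and Slc32a1 and -0.16 for Gad2 and Slc32a1. Likeness to their mean is thus not likeness to each of them. The genes most like Sst over 20 arrays were Nr2f2 (r = 0.874), Gpr135 (0.866), Fezf1 (0.859), Stoml3 (0.839) and Dnah2 (0.838).

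Related gene lists were counted for the average effect in the 20 arrays, where 56.5% of all genes passed, 33.6% higher and 22.9% lower. Of 11 genes of GABA transport and breakdown, 8 were tested, and 3 rose and 2 fell on average in the 20 arrays, a share close to that of all genes, with 0 called in the 24 arrays, where the 8 had a median difference of 0.05. Slc38a2, a glutamine transporter, rose by 0.46 ± 0.04 (adjusted p = 1.29e-08) and the chloride importer Slc12a2 rose by 0.42 ± 0.05 (adjusted p = 7.22e-07). The chloride exporter Slc12a5 fell by 0.19 ± 0.03 (adjusted p = 6.98e-05) and the GABA transporter Slc6a11 by 0.12 ± 0.03 (adjusted p = 0.000895). The median of the list was -0.03 in the 20 arrays, near the 0.03 of all genes.

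Of 27 listed transcription factors that act with or beside Dlx genes, 18 were tested, and in the 20 arrays 11 rose and 2 fell, against 33.6% of all genes higher and 22.9% lower, with a median difference of 0.19 beside the 0.03 of all genes. In the 24 arrays 1 rose, Lhx8, a factor of basal forebrain cholinergic and GABA neurons, by 0.81 ± 0.10 (adjusted p = 0.000359). Without the narrow arrays Lhx8 rose by 0.90 ± 0.07 (adjusted p = 4.79e-09), Meis2, a factor of striatal GABA neurons, by 0.83 ± 0.05 (adjusted p = 4.65e-10), and Satb1 and Zeb2, both factors of cortical interneurons, by 0.63 ± 0.05 each (adjusted p = 4.43e-09 and 1.29e-08). Lhx8, Satb1 and Zeb2 were higher at all 4 times in those arrays. The average of Meis2 joined opposite directions, since in those arrays it fell by 0.88 ± 0.10 at ZT1 (adjusted p = 2e-05), rose by 2.09 ± 0.09 at ZT7 (adjusted p = 4.92e-12) and by 1.97 ± 0.13 at ZT19 (adjusted p = 6.62e-09), and differed by 0.14 ± 0.10 at ZT13 (adjusted p = 0.264).

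Of 19 peptides and proteins of interneurons, 16 were tested, with 5 higher and 4 lower in the 20 arrays, so that 9 of 16 stood beside 56.5% of all genes, and with 0 called in the 24 arrays (median 0.11). Tac1, the precursor of substance P, rose by 0.51 ± 0.07 (adjusted p = 6.79e-06), the neuregulin receptor gene Erbb4 by 0.27 ± 0.03 (adjusted p = 1.76e-06) and Penk, the enkephalin precursor, by 0.26 ± 0.02 (adjusted p = 5.47e-08). Penk was higher at 3 times in those arrays and fell by 0.12 ± 0.05 at ZT13 (adjusted p = 0.0437). Pnoc, the nociceptin precursor, fell by 0.35 ± 0.05 (adjusted p = 4.67e-06).

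In the somatostatin axis, 6 of 8 listed genes were tested, and 1 rose and 3 fell in the 20 arrays, against 56.5% of all genes in either direction. Sstr4, a somatostatin receptor, fell in both sets, by 0.32 ± 0.06 in the 24 arrays (adjusted p = 0.0118) and 0.32 ± 0.05 in the 20 arrays (adjusted p = 6.95e-05). The receptor gene Sstr1 rose by 0.46 ± 0.09 in the 20 arrays (adjusted p = 0.000215), Ghrh, the precursor of the hormone that releases growth hormone, fell by 0.25 ± 0.08 (adjusted p = 0.00853), and the ghrelin receptor gene Ghsr fell by 0.17 ± 0.07 (adjusted p = 0.0337).

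Markers of brain regions next to the mediobasal hypothalamus, and of its own arcuate and ventromedial nuclei, differed between the conditions as well. All 3 tested of 6 basal forebrain cholinergic markers rose in the 20 arrays, among them the choline transporter gene Slc5a7 by 1.80 ± 0.07 (adjusted p = 1.27e-13) and the vesicular transporter gene Slc18a3 by 1 ± 0.07 (adjusted p = 1.55e-09), and 2 passed in the 24 arrays. Of 8 tested striatal markers 6 rose in the 20 arrays, with Drd3 higher by 0.82 ± 0.05 (adjusted p = 3.59e-10) and Foxp2 by 0.78 ± 0.05 (adjusted p = 2.69e-10), and 3 passed in the 24 arrays. Foxp2 was higher at 3 times in the 20 arrays and fell by 0.41 ± 0.09 at ZT1 (adjusted p = 0.00544). Among the lower lists in the 20 arrays, where 22.9% of all genes fell, 8 of 10 tested suprachiasmatic markers fell, 6 of 7 paraventricular and supraoptic markers fell, and of 8 arcuate and ventromedial markers 7 fell and 1 rose. Across all 24 arrays 3 of these 10, 2 of these 7 and 1 of these 8 fell and none rose, where 1.68% of all genes fell. The lists share some genes, such as Avp in the suprachiasmatic list and the paraventricular and supraoptic list. Their counts are therefore not independent. Of 6 markers of the zona incerta and reticular thalamus, 3 rose and 3 fell in the 20 arrays, and 2 fell in the 24 arrays.

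These lists moved at some of the same times as the 8 genes. At ZT7 the mean level of the 5 cholinergic markers with a probe set was 7.47 to 7.58 log2 units over TSR arrays, against 5.56 to 5.93 over CON arrays, and that of the striatal markers was 7.57 to 7.64 in TSR arrays, against 6.76 to 6.91 in CON arrays. At ZT1 the cholinergic mean was 7.40 to 7.44 in the wide TSR arrays, against 7.15 to 7.28 in CON arrays. Of the 3 tested cholinergic markers 0 passed there in the 20 arrays, against 10.1% of all genes, and Dlx2 and Gad1 did not pass either. The mean of the 12 suprachiasmatic markers was 6.92 in each TSR array at ZT7, against 7.54 to 7.63 in CON arrays, and at ZT13 it was 6.89 to 6.96 in the wide TSR arrays, against 7.32 to 7.43 in CON arrays. At ZT19 it was 7.41 to 7.56 in TSR arrays, against 7.32 in the wide CON array. Sst was 12.42 to 12.54 in TSR arrays at that time, against 12.68 in the wide CON array. The mean of 8 paraventricular and supraoptic markers at ZT13 was 7.88 to 7.99 in the wide TSR arrays, against 8.25 to 8.34 in CON arrays. The part of these regions in the differences of the 8 genes was not tested.

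**Figure D4:**
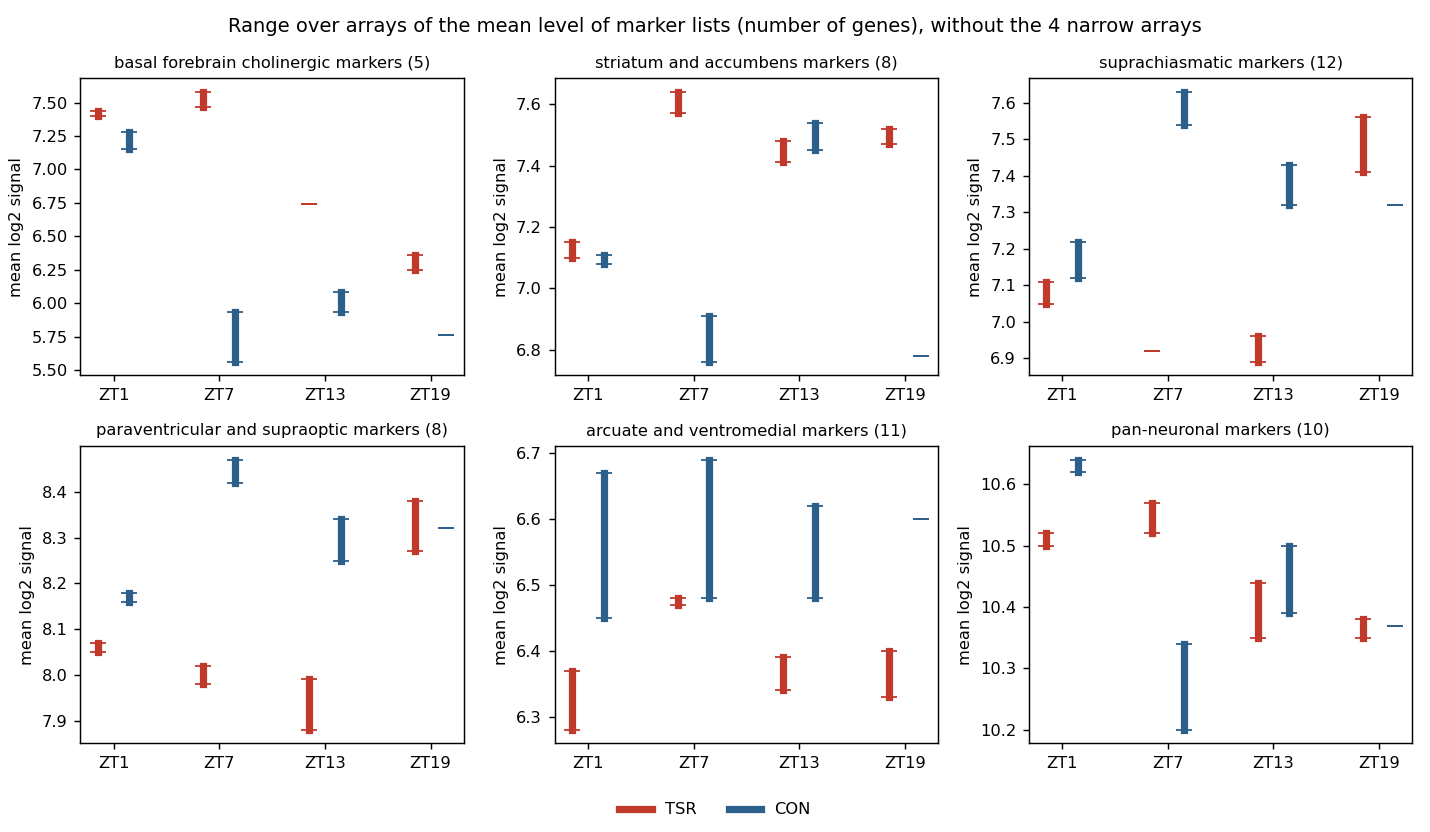
Range over wide arrays of the mean log2 signal of 6 marker lists (panels, number of genes with a probe set in brackets) by time, TSR in red left of CON in blue. The cholinergic and striatal lists are higher in TSR arrays at ZT7 and the suprachiasmatic list is lower at ZT7 and ZT13.

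Counts for markers of broad cell classes in the 20 arrays stand beside the same 33.6% of all genes higher and 22.9% lower. Of 10 pan-neuronal markers 3 rose and 2 fell, with a median difference of 0.01, and Rbfox3, a nuclear protein of mature neurons, fell by 0.45 ± 0.04 (adjusted p = 2.79e-08). Of 5 tested glutamatergic markers all 5 rose, led by Slc17a7, a vesicular glutamate transporter gene of the cortex and thalamus, by 0.84 ± 0.06 (adjusted p = 3.43e-09). Of 8 astrocyte markers 2 rose and 3 fell, of 7 oligodendrocyte markers 5 rose, and of 7 endothelial and mural markers 4 rose and 1 fell. Across all 24 arrays 1 of the 5 glutamatergic and 1 of the 7 endothelial and mural markers rose, and 0 of the other 3 lists passed. Their part in the differences of the 8 genes was likewise not tested.

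**Figure D5:**
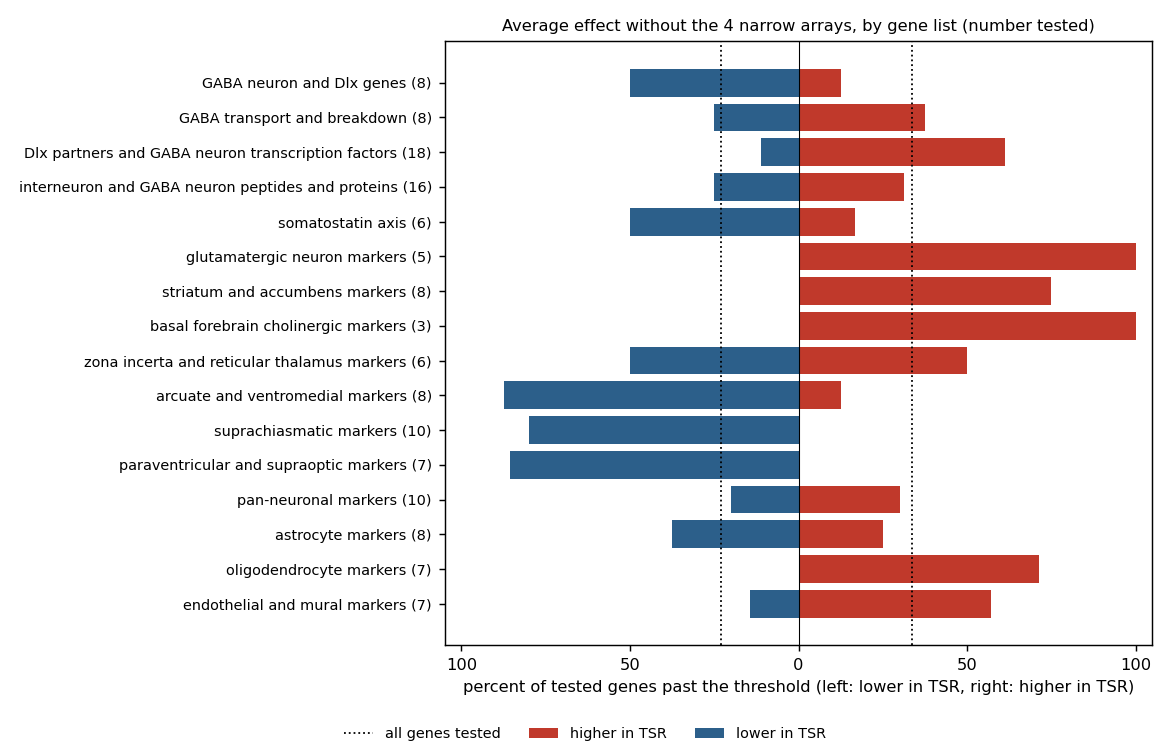
Percent of the tested genes of each list past the threshold for the average effect in the 20 arrays, higher in TSR to the right in red and lower in TSR to the left in blue, with the number tested in brackets and dotted lines at the 33.6% and 22.9% of all genes. The 8 genes described here stand at 1 higher and 4 lower, while the list of Dlx partners stands at 11 higher and 2 lower of 18.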

How the data were processed

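Per the labels' protocols, biotin-labelled targets were made from total RNA with a GeneChip WT Terminal Labeling Kit. Affymetrix Expression Console is named in the submitters' processing notes, and its summarization method is not stated there. The authors deposited log2 signals of 35556 probe sets in 24 arrays. The numbers 1, 7, 13 and 19 of the titles were read as zeitgeber hours. Cells with a shifted decimal point were multiplied by 10 where this brought them within 2.5 log2 units of the other arrays (2149 of 853344 cells, 0.252%), and 58 cells, most of them turned into dates, were set to missing. In a test the decimal point was moved in 600 real values, from probe sets with no repaired, missing or very low cell. Of these 596 were restored, and 0 other cells of such probe sets changed. The rule had already left those other cells unchanged, so the test does not measure wrong repairs.

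Probe sets with 1 gene symbol were kept, the highest mean taken per gene, and means under the 40th percentile removed. limma 3.58.1 in R 4.3.3 fitted 8 group means with a trend, 2-sided, with Benjamini-Hochberg adjustment over all 11871 genes. The average effect is the mean of the 4 differences within times, and the effects of time and their interaction are F tests. In simulations on the spread of the 24 arrays, 48% of average effects of 0.5 and 91% of those of 1 log2 unit were recovered (11837 genes). The simulated noise was independent and equally wide in every array. It held no narrow arrays, so these shares do not describe recovery with the 4 narrow arrays present.

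The members and lists were chosen with earlier results of these data known. Genes named from other lists are up to 4 per list with the smallest p for the average effect among those past the threshold in either set of arrays, and the most similar genes are the 5 highest Pearson correlations. Promoters are from RefSeq, of GRCm38.p6, with 6 of 8 genes matched. Alternatives covered the filter, probe sets, normalization, moderation, weights, a replicate block, the restored cells and single arrays.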

Additional observations from a re-analysis of the deposited data

How the results depend on the processing

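The members past the threshold numbered 1 for the average effect, 0 at ZT1, ZT7 and ZT13, 2 at ZT19 and 0 for time in TSR, time in CON and the interaction. In the 20 arrays they were 5, 1, 6, 5, 4, 6, 6 and 6 in that order, where 56.5%, 10.1%, 26.9%, 46.2%, 24.9%, 24.4%, 29.9% and 29.9% of all genes passed. With quantile normalization of the 24 arrays the counts that moved were 3 for the average effect, 1 at ZT1, 2 at ZT13 and 1 for time in TSR, where 9.04%, 0.0758%, 2.53% and 0.101% of all genes passed. With quantile normalization of the 20 arrays all moved, to 6, 2, 5, 6, 4, 7, 7 and 6, where 60.1%, 12.5%, 32%, 50.1%, 29.6%, 29.9%, 35.8% and 36.4% of all genes passed. Array weights, whose estimation stopped before convergence, gave 7, 3, 6, 6, 6, 7, 8 and 8, where 79.5%, 34.6%, 39.6%, 71.2%, 83.5%, 74.6%, 92% and 93.2% of all genes passed. Moderation without a trend gave 2 for the average effect, against 2.21% of all genes. Fits to only the 6 arrays of a time gave 5 at ZT7 and 0 at ZT19, against 17.7% and 0.0337% of all genes. No filter, the mean of probe sets, missing restored cells and dates read back (chosen after seeing the data) changed no count and no direction. These fits used the 24 arrays, so Gad2 at ZT7 in the 20 arrays was not tested with its date read back.

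Leaving out 1 array at a time gave 1 to 2 for the average effect, where 1.31% to 10.9% of all genes passed. At ZT13 it gave 0 to 2, where 0.059% to 3.51% passed, and at ZT19 0 to 5, where 0.00842% to 78.1% passed. Time in CON gave 0 to 6, where 0.143% to 70.3% passed. The interaction gave 0 to 7, where 0.118% to 69.9% passed, and the count was 0 elsewhere. The highest counts at ZT19, for time in CON and for the interaction came without CON at ZT19 replicate 1, which left that group with 2 narrow arrays, where 78.1%, 70.3% and 69.9% of all genes passed. Directions reversed in 17 of 960 such gene results, with ranges of -0.02 to 0.21 (Dlx5) and -0.14 to 0.08 (Slc32a1) for the average effect, -0.50 to 0.40 (Dlx5), -0.79 to 0.02 (Gad1) and -0.46 to 0.42 (Slc32a1) at ZT1, -0.25 to 0.07 (Dlx5) and -0.10 to 0.16 (Slc32a1) at ZT7, -0.44 to 0.07 (Gad1) and -0.68 to 0.10 (Gad2) at ZT13, and -0.25 to 0.19 (Dlx2) and -0.03 to 0.11 (Dlx6) at ZT19.

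In the 20 arrays the direction reversed at ZT1 for Dlx5 (0.40), Gad1 (0.02) and Slc32a1 (0.42), at ZT13 for Gad1 (0.07) and Gad2 (0.10), and at ZT19 for Dlx1 (-0.46), Dlx5 (-0.01), Slc32a1 (-0.21) and Sst (-0.22). With quantile normalization of the 20 arrays it reversed at ZT1 for Dlx5 (0.33), Dlx6 (-0.02) and Slc32a1 (0.35), at ZT13 for Gad1 (0.13) and Gad2 (0.32), and at ZT19 for Dlx1 (-0.52), Dlx5 (-0.04), Dlx6 (-0.01), Slc32a1 (-0.27) and Sst (-0.15). With quantile normalization of the 24 arrays it reversed for Dlx6 at ZT19 (-0.14) and Slc32a1 at ZT1 (0.03). With array weights it reversed for Dlx2 at ZT19 (0.14), Dlx5 (0.39), Gad1 (0.01) and Slc32a1 (0.42) at ZT1, Gad1 (0.02) and Gad2 (0.01) at ZT13 and the average of Slc32a1 (0.16). The cause was not tested. The average effect of Dlx2, Dlx1, Dlx6 and Sst was negative in TSR minus CON, and that of Gad1 positive, in every one of these fits.

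The replicate numbers are not stated to pair the samples, and no pairing was used. Same-numbered TSR and CON arrays had deviations that correlated between -0.43 and 0.39, with 5 of 12 over 0.1. With 3 arrays per group, some of them narrow, these correlations cannot tell whether samples were paired. A fit with a replicate block gave 1 member past the threshold for the average effect, where 1.95% of all genes passed. It gave 2 at ZT19, where 55.6% passed, and 0 elsewhere, where 0.0337% to 0.337% passed. It changed no call. With 24 arrays the narrow arrays limit what can be seen, and with 20 the CON group at ZT19 holds 1 array.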
